A study of Mus musculus with 4 samples.

Results

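Galectins are secreted and intracellular lectins that bind galactose-ended sugar chains, and the Mgat enzymes of the Golgi build the branched N-glycans on which many of these galactose ends sit. The 8 genes described here are the galectins Lgals1, Lgals3, Lgals8 and Lgals9, the galectin-3 binding glycoprotein Lgals3bp, and the N-acetylglucosaminyltransferases Mgat1, Mgat2 and Mgat5. They are 8 of the 18193 genes named on the arrays, and they were taken as every probe set that the platform annotation gives exactly one of these symbols, which came to 13 of 34945 single-gene probe sets. All 8 genes and all 13 probe sets lay above background on at least 2 arrays and were tested, among 11253 genes and 21793 probe sets tested in all. The genes were chosen from a list of symbols, with their signals on the KO and LM arrays known, so their values in that contrast are a description and support nothing.

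The samples were CD4 single-positive thymocytes of mice on a B6 background, T cell precursors that have settled on the CD4 lineage in the thymus. The KO group (2 arrays) carried CD4-Cre and Cul3 fl/fl, and the LM group (2 arrays) was Cul3 fl/fl without Cre, so both groups carried the floxed Cul3 gene. Cells that stained for CD25, the CD1d-PBS57 tetramer of NKT cells or the gamma delta T cell receptor were removed in the sort, and the age of the mice is not given in the sources used here. Separate animals are not stated for the 2 arrays of a group, so p-values measure only how far these arrays spread, and that spread may be technical. For each gene, the spread used is largely borrowed from other genes on the same arrays. CD4-Cre acts in all cells that have passed through CD4 expression, and with no Cre-carrying array without floxed Cul3, the Cre transgene and the loss of Cul3 cannot be told apart.

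The targeted gene gave no check of the labels. Cul3, by its brightest probe set, read 5380 and 5577 on the arrays labelled KO, against 5333 and 5724 on the LM arrays, a difference of -0.01 ± 0.09 (SE, log2 scale, n = 2 each, limma adjusted p = 0.994). The other Cul3 probe sets differed by 0.31, 0.07, -0.15 and -0.02, each with overlapping groups, and none was called. A probe set checks the deletion only if it lies inside the deleted part, and its place relative to that part is not given in the sources used here. Directions are therefore stated for arrays labelled KO. Defining markers of the labelled cell type were present. All 10 measured CD4 single-positive markers were above background on all 4 arrays. Cd4 itself read 7169 and 7233 on the arrays labelled KO, against 7742 and 8153 on the LM arrays. Of 8 named double-positive thymocyte markers 6 were also above background on all 4 arrays. Dntt read 2058 and 2186 on the arrays labelled KO, against 1865 and 2453 on the LM arrays, and Cd8a 926 and 625 against 756 and 702.5. Of 5 named erythroid markers 1, Hba-a2, was so too, at 6529 and 5591 on the arrays labelled KO, against 6134 and 6280 on the LM arrays. The purity of the sort was not tested.

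Galectin binding in the thymus takes part in thymocyte death, adhesion and the tuning of T cell receptor signalling. Mgat1 starts the complex N-glycan, Mgat2 adds the second antenna, and Mgat5 adds the beta-1,6 branch that carries long N-acetyllactosamine chains, the preferred ligands of galectin-3. In mice, loss of Mgat5 is known to lower the activation threshold of T cells. Sugars at the ends of these chains, such as alpha-2,6-linked sialic acid, block binding of some galectins.

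Of the 8 genes, Lgals1 fell on the arrays labelled KO, none rose, and 7 did not pass the test (limma with Benjamini-Hochberg adjustment over all genes, threshold 0.05). Over all 11253 genes tested, 0.275% were called, 15 higher (0.133%) and 16 lower (0.142%). Of the 8 genes 2, Lgals1 and Lgals3, had an unadjusted p below 0.05, beside 8.39% of all genes, and 4 had a positive difference, beside 50.3% of all genes. Lgals1 was 1.63-fold lower, and Lgals3 was above background only on the arrays labelled KO. Mgat5 had a positive difference on 3 of 3 probe sets and Lgals8 on 2 of 2, while Lgals1 and Mgat2 had a negative difference on each of theirs. Probe sets of a gene were read on the same arrays and are not independent. Lgals9 had nearly the same level in both groups. On the normalized scale the arrays labelled KO did not overlap with the LM arrays for 5 of the 8 genes, 3 higher and 2 lower, against 37.3% of all genes tested. The median difference over the 8 genes was -0.05 on the log2 scale, beside 0.002 over all genes tested. Differences are KO minus LM on log2(signal + 16) after quantile normalization, which understates the changes of dim genes, and levels below are deposited signals per array unless said otherwise.

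**Figure D1:**
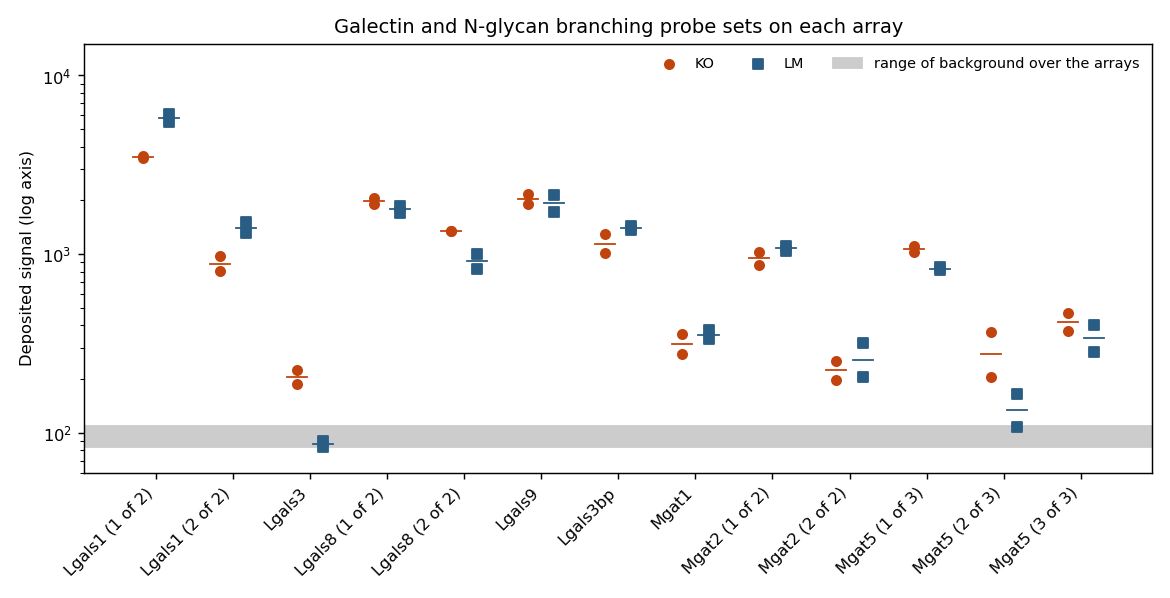
Deposited signal (log axis) of the 13 probe sets on each array, with arrays labelled KO as circles and LM arrays as squares, replicate means (geometric) as short lines, and the grey band spanning the background of the 4 arrays, 83.4 to 108.7; where a gene has several probe sets, the brightest is listed first. Both Lgals1 probe sets are lower on the arrays labelled KO, and Lgals3 lies above the band only there.

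Lgals1 encodes galectin-1, a small galectin that forms dimers and is known to cross-link glycoproteins on thymocytes and activated T cells. Its brighter probe set read 3466 and 3547 on the arrays labelled KO, against 5504 and 6106 on the LM arrays. Both arrays labelled KO lay below both LM arrays, and the replicates of each group lay close together. The log2 level was 11.79 ± 0.05 on the arrays labelled KO and 12.50 ± 0.04 on the LM arrays (SD, n = 2 each), a difference of -0.71 ± 0.10 (SE, limma adjusted p = 0.0126). The 95% interval put the signal on the arrays labelled KO at 52.4% to 71.6% of that on the LM arrays.

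The dimmer Lgals1 probe set read 973 and 806 on the arrays labelled KO, against 1308 and 1519 on the LM arrays. It pointed the same way, again without overlap, with a difference of -0.65 ± 0.18, but it did not pass when every probe set was tested (limma adjusted p = 0.289). Of the 21793 probe sets tested, 0.229% were called, and of the 13 described here the brighter Lgals1 probe set alone was. The groups did not overlap for 8 of the 13 (36.7% of all probe sets), 5 had an unadjusted p below 0.05 (7.97% of all) and 7 a positive difference (49.2% of all). Without the filter on dim genes the adjusted p of Lgals1 was 0.138, and without the intensity trend in limma's moderation it was 0.429. In both of these fits 0 of all genes passed in limma, with 1247 and 921 genes at an unadjusted p below 0.05.

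Lgals3 encodes galectin-3, the single galectin with a collagen-like tail through which it forms larger assemblies. Its probe set read 226 and 188 on the arrays labelled KO, where the background was 97.4 and 83.4, against 90.1 and 83.9 on the LM arrays, where the background was 108.7 and 85.2. Lgals3 was thus not above background on either LM array, although LM replicate 2 was only just under it. With the LM arrays raised to their background, the estimate for Lgals3 was at least 1.90-fold higher on the arrays labelled KO. The measured log2 levels were 7.78 ± 0.23 on the arrays labelled KO and 6.72 ± 0.02 on the LM arrays (SD, n = 2 each). The difference did not pass (1.05 ± 0.36, SE, limma adjusted p = 0.404).

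The letters around the Lgals3 start site are shown because this is the member that crossed the background. The RefSeq window, chr14:47373610-47373909 on the plus strand of GRCm38.p6, runs from 250 bases before to 50 after the start, and capitals mark 2 GC boxes (GGGCGG, sought on both strands), at -7 to -2 and at 5 to 10.
Lgals3: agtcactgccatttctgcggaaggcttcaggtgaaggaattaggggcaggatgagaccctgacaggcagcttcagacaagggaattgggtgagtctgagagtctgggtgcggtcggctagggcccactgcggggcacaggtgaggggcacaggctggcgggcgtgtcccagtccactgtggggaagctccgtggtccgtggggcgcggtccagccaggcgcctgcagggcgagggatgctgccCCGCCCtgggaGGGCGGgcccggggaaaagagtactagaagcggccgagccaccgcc
GC boxes occurred in 35.7% of all 32851 mouse promoter windows of this length. None of the other motifs sought in the member windows, named below, was found in it.

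Lgals8 and Lgals9 encode galectins with a pair of sugar-binding domains joined by a linker. The brighter Lgals8 probe set read 1920 and 2066 on the arrays labelled KO, against 1867 and 1698 on the LM arrays, a difference of 0.16 ± 0.15 (SE, limma adjusted p = 0.863). The second Lgals8 probe set read 1341 and 1351 on the arrays labelled KO, against 824.5 and 1007 on the LM arrays, a difference of 0.56 ± 0.18 (limma adjusted p = 0.387 over all probe sets). Both Lgals8 probe sets were higher without overlap on the arrays labelled KO, by amounts that differed between them, and neither passed. The difference of the brighter probe set was 0.24 without LM replicate 1, 0.08 without LM replicate 2 and 0.10 without KO replicate 2. Averaged over both, the Lgals8 difference was 0.36 (limma adjusted p = 0.366).

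Lgals9, whose product binds the inhibitory receptor Tim-3, read 2159 and 1906.5 on the arrays labelled KO, against 1723.5 and 2154 on the LM arrays. The groups overlapped, the difference was 0.07 ± 0.16 (SE, limma adjusted p = 0.956), and the 95% interval ran from 83.0% to 133% of the LM signal. Havcr2, which encodes Tim-3 and was named after its values were seen, was below background on all 4 arrays.

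Lgals3bp encodes a secreted, heavily glycosylated protein that binds galectin-3 and is known to be induced by interferon. It read 1302 and 1011 on the arrays labelled KO, against 1431.5 and 1370 on the LM arrays. KO replicate 2 was the lowest of the 4 arrays, and the groups did not overlap. The difference of -0.28 ± 0.18 (SE, limma adjusted p = 0.758) was -0.11 without KO replicate 2 and -0.46 without KO replicate 1.

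**Figure D2:**
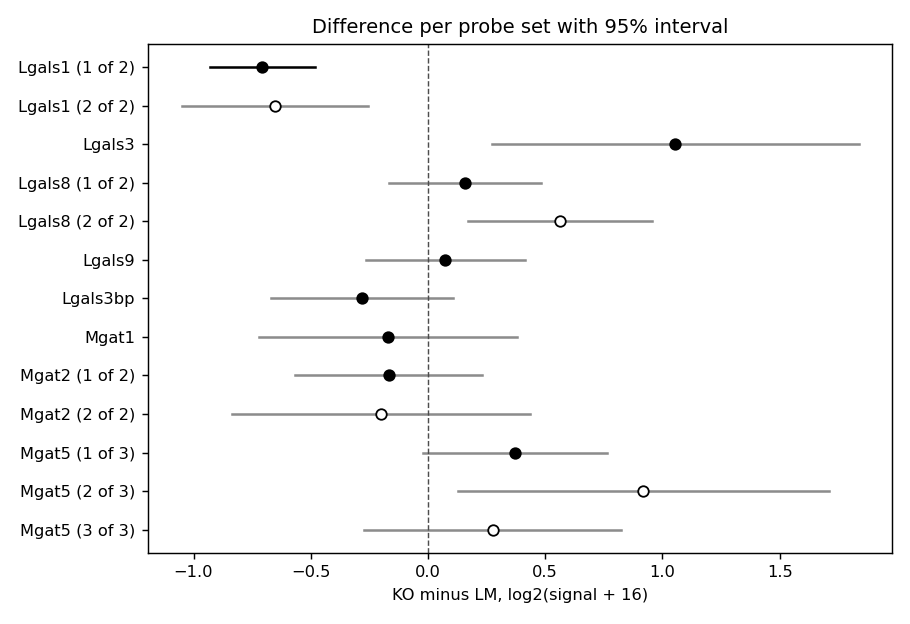
KO minus LM difference of each of the 13 probe sets on the log2(signal + 16) scale, with the 95% interval from the limma fit over all probe sets; filled points mark the brightest probe set of a gene, and a black line marks adjusted p below 0.05. The brighter Lgals1 probe set, at -0.71, is the one with a black line, and the 3 Mgat5 probe sets lie at 0.28 to 0.92.

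Mgat1 acts first in the order of branching. It read 275.0 and 358 on the arrays labelled KO, against 336 and 375 on the LM arrays, with overlap and a difference of -0.17 ± 0.25 (SE, limma adjusted p = 0.921). The brighter probe set of Mgat2, which acts next, read 869 and 1032 on the arrays labelled KO, against 1043.5 and 1116 on the LM arrays. Its difference was -0.17 ± 0.18 (limma adjusted p = 0.881), and that of its dimmer probe set was -0.20 ± 0.29. The 95% intervals allowed 60.9% to 130% of the LM signal for Mgat1 and 67.7% to 117% for Mgat2. Both differences depended on single arrays. Without KO replicate 1 they were -0.01 for Mgat1 and -0.04 for Mgat2, and without KO replicate 2 they were -0.34 and -0.29. Without LM replicate 1 Mgat1 was at -0.29, and without LM replicate 2 it was at -0.05.

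Mgat5 makes the beta-1,6 branch. Its brightest probe set read 1034 and 1110 on the arrays labelled KO, against 847 and 814 on the LM arrays, and both arrays labelled KO lay above both LM arrays. The difference was 0.37 ± 0.18 (SE, limma adjusted p = 0.629), with a 95% interval of 98.8% to 169% of the LM signal. A second Mgat5 probe set read 367 and 207 on the arrays labelled KO, against 108 and 165 on the LM arrays, where LM replicate 1 was below background. It differed by 0.92 ± 0.37, and the third by 0.28 ± 0.25 with overlapping groups. The 3 probe sets thus had the same sign and differed in size, and none passed.

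The Mgat5 window was picked after the motif search, as the member window that holds an antioxidant response element core. Its RefSeq window, chr1:127204736-127205035 on the plus strand of GRCm38.p6, is given below, and capitals mark an antioxidant response element core (TGACNNNGC) at -185 to -177, a GC box at -15 to -10 and an ETS core (CCGGAA) at 15 to 20. The antioxidant element binds NRF2, a factor that Cul3 ligases mark for degradation. Binding of NRF2 to this window, and its part in the Mgat5 values, were not tested.
Mgat5: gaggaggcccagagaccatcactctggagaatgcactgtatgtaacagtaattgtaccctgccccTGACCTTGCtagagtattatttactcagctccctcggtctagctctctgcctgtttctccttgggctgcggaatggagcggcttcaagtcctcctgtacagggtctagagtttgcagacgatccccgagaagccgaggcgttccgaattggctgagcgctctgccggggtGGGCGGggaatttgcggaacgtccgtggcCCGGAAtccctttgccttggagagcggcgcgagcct
The antioxidant core was present in 12.4% and the ETS core in 14.9% of all promoter windows. Among the 7 members with a window, which are all but Lgals1, 1 held the antioxidant core, 2 the ETS core (Mgat5 and Mgat1), 4 a GC box and 0 an AP-1 site (TGANTCA, 7.81% of all windows).

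Interferon response elements (GAAA repeated after a gap of 2 bases, on either strand) were found, among those 7 members, in the Lgals9 window, which is shown for that reason, against 3.44% of all windows. The window, chr11:78984875-78985174 on the minus strand of GRCm38.p6, held 2 of them, at -55 to -46 and at 16 to 25, in capitals here.
Lgals9: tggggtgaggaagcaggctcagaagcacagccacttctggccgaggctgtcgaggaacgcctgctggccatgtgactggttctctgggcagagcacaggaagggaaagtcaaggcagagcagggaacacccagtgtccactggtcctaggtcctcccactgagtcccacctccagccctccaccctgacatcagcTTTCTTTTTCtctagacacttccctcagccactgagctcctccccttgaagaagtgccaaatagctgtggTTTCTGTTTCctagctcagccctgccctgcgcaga
These matches are letters, not measured binding. Interferon-stimulated genes, a list given beside Lgals9 and Lgals3bp, held 32 tested genes, of which 0 were called, 14 had a positive and 18 a negative difference, with a median of -0.08. Both arrays labelled KO lay below both LM arrays for 12 of the 32 and above for 5, against 18.2% and 19.1% of all genes tested. Ifit1 differed by -0.47 ± 0.11 (SE, limma adjusted p = 0.149), Ifit3 by -0.66 ± 0.16 (adjusted p = 0.190) and Ifi27l2a by -0.41 ± 0.11 (adjusted p = 0.267). Without KO replicate 1 the median of the list was 0.004.

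**Figure D3:**
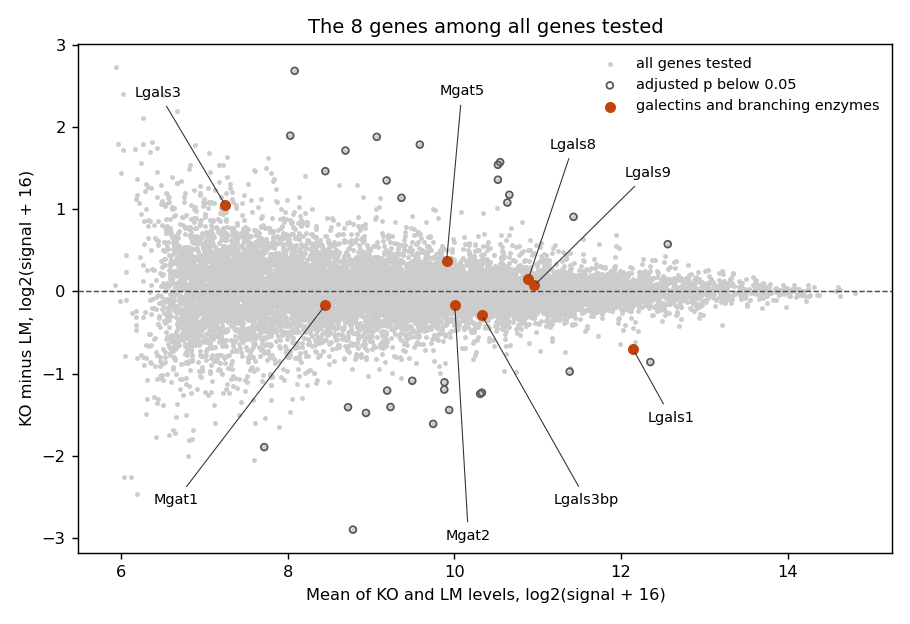
KO minus LM difference against mean level for all 11253 genes tested, 1 point per gene on the log2(signal + 16) scale, with the 31 called genes ringed and the 8 galectin and branching genes filled. Lgals1, at a difference of -0.71, is the filled gene that was called, and Lgals3, at 1.05, lies among dim genes, where the spread of all genes is wide.

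The other genes of these pathways were read from lists, none of which held a called gene except the proliferation list given further on. Of 8 other galectin entries 6 were named on the array and 4 tested, with 3 of the 4 differences negative and a median of -0.52. The lens galectin relative Grifin read 210 and 295 on the arrays labelled KO, against 462 and 311 on the LM arrays (-0.59 ± 0.27, SE, limma adjusted p = 0.600). Lgals4, an intestinal galectin, read 203 and 221 on the arrays labelled KO, against 343.5 and 253 on the LM arrays (-0.47 ± 0.27), and Lgalsl differed by -0.58 ± 0.41. Grifin and Lgals4 were above background on all 4 arrays, Lgalsl on 3 of them, and Lgals2 on none.

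Enzymes that trim and branch N-glycans beside Mgat1, Mgat2 and Mgat5 had 13 tested members, of which 9 had a positive and 4 a negative difference, with a median of 0.06. That median was 0.17 without LM replicate 1, 0.13 without LM replicate 2 and 0.01 with median centring. Mgat4a, which adds the beta-1,4 branch, read 842 and 979 on the arrays labelled KO, against 589 and 473 on the LM arrays. Its groups did not overlap, and its difference of 0.77 ± 0.20 (SE) had a limma adjusted p of 0.221. The Golgi mannosidase Man1c1 read 476 and 318 on the arrays labelled KO, against 662 and 741.5 on the LM arrays (-0.83 ± 0.24, limma adjusted p = 0.303). The endoplasmic reticulum mannosidase Man1b1 differed by 0.73 ± 0.30 (adjusted p = 0.549).

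Enzymes that extend and cap N-glycans had 10 tested members, 6 positive and 4 negative, with a median of 0.16 that was -0.03 without KO replicate 1, 0.29 without KO replicate 2 and 0.26 without LM replicate 2. The alpha-2,3 sialyltransferase St3gal6 read 547 and 569 on the arrays labelled KO, against 391 and 231 on the LM arrays (0.85 ± 0.25, SE, limma adjusted p = 0.311). St6gal1, which adds the alpha-2,6 sialic acid known to block galectin-1, read 6632 and 6602 on the arrays labelled KO, against 5416 and 5573 on the LM arrays. Its replicates were close and its groups apart, with a difference of 0.27 ± 0.09 (limma adjusted p = 0.394). B3gnt3, which extends chains with N-acetylglucosamine, read 104 and 106 on the arrays labelled KO and was not above background on the LM arrays, at least 1.02-fold higher (limma adjusted p = 0.551).

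O-glycan enzymes, which build or cap the second kind of galectin ligand, had 10 tested members with 9 positive and 1 negative difference and a median of 0.23. Most of them are sialyltransferases, which cap these chains, so the signs do not show whether more ligand was made. Both arrays labelled KO lay above both LM arrays for 6 of the 10 and below for 0, while 19.1% of all genes tested lay above. The sialyltransferase St3gal2 read 834 and 965 on the arrays labelled KO, against 579 and 673 on the LM arrays (0.53 ± 0.20, SE, limma adjusted p = 0.458). St3gal1, which caps core 1 chains, differed by 0.25 ± 0.12 (adjusted p = 0.602). Gcnt1, which builds the core 2 branch that galectin-1 binds, read 202 and 148 on the arrays labelled KO, against 125 and 64.1 on the LM arrays, the lowest being below background (0.77 ± 0.41, adjusted p = 0.679).

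The hexosamine pathway, which supplies the sugar donor of the Mgat enzymes, and its Golgi transporters had 15 tested members, 6 positive and 9 negative, with a median of -0.07. Gnpda1, which drains the pathway, differed by -0.56 ± 0.24 (SE, limma adjusted p = 0.555). The Golgi carrier of UDP-N-acetylglucosamine, Slc35a3, differed by -0.41 ± 0.23 (adjusted p = 0.704), and the pathway enzyme Pgm3 by -0.37 ± 0.23 (adjusted p = 0.754). The median of this list was 0.06 without KO replicate 2 and 0.07 without LM replicate 2.

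**Figure D4:**
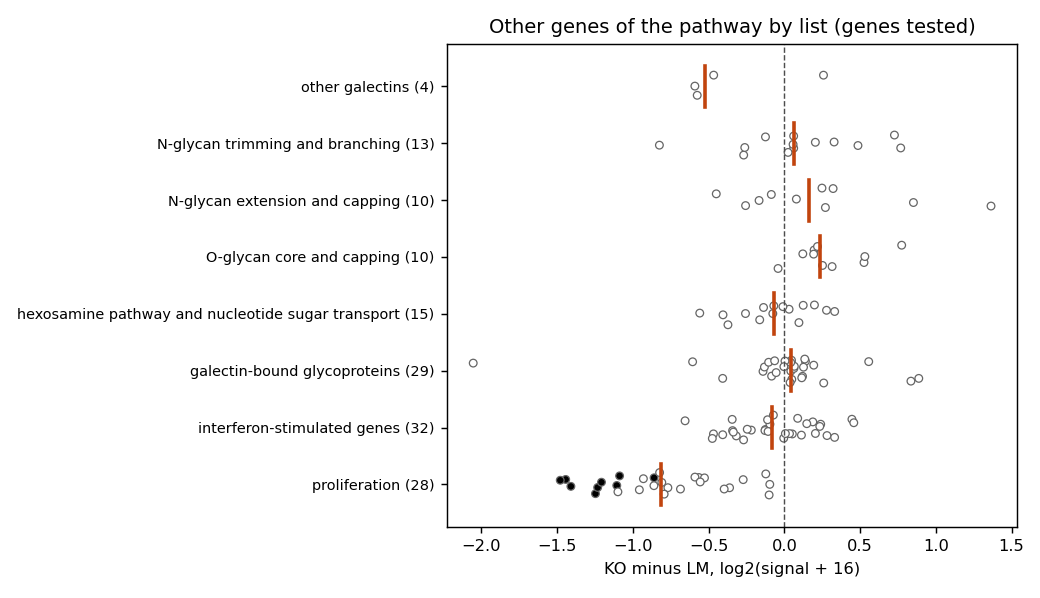
KO minus LM difference of each tested gene in the 8 lists of related genes, on the log2(signal + 16) scale, with the number tested in brackets, list medians as vertical bars and called genes filled. Filled points occur in the proliferation list, whose median is -0.82, and the medians of the N-glycan and O-glycan lists lie at 0.06 to 0.23.

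Glycoproteins that galectins bind on T cells had 29 tested members, 19 positive and 10 negative, with a median of 0.05 that ran from 0.02 to 0.09 with 1 array left out (lowest without KO replicate 1, highest without KO replicate 2). Spn, or CD43, a sialomucin that binds galectin-1 in human T cells, read 8991 and 7599 on the arrays labelled KO, against 10255 and 11764.5 on the LM arrays. It lay lower without overlap, by -0.41 ± 0.09 (SE, limma adjusted p = 0.103). The hyaluronan receptor Cd44 read 659.5 and 750.1 on the arrays labelled KO, against 308 and 457 on the LM arrays (0.89 ± 0.24, adjusted p = 0.262). The integrin chain Itga5 read 30.2 and 190 on the arrays labelled KO, the first below background, against 335 and 428 on the LM arrays (-2.05 ± 0.54, adjusted p = 0.221). Of other receptors of galectin-1 known from human T cells, 2 were named after their values were seen. Cd7 differed by -0.61 ± 0.21 (adjusted p = 0.425), and Ptprc, or CD45, by 0.05 ± 0.07 (adjusted p = 0.918).

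Proliferation genes were lower together with Lgals1. Of 28 tested, 9 fell in limma, against 0.142% of all genes tested. They were Mki67, Top2a, Kif11, Ube2c, Cenpe, Cdca3, Ccna2, Cenpf and Uhrf1, with differences of -1.48 to -0.86. The median was -0.82 with all 28 differences negative. It was -0.65 without KO replicate 1 and -1.02 without KO replicate 2. Rrm2, a ribonucleotide reductase subunit, differed by -0.93 ± 0.17 (SE, limma adjusted p = 0.0521), the replication clamp Pcna by -0.36 ± 0.09 (adjusted p = 0.202) and Birc5 by -0.86 ± 0.25 (adjusted p = 0.287), and none of these 3 passed. The summed signal of the 29 named genes of the list was 27685 and 29986 on the arrays labelled KO, against 44504 and 45904 on the LM arrays. Their part in the Lgals1 result was not tested. In sorted bulk samples, fewer cells of a type and less RNA per cell cannot be told apart.

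The 5 tested genes with profiles nearest to that of Lgals1 over the 4 arrays, by Euclidean distance between mean-centred log2 levels, were Timeless (0.043), Spc24 (0.060), Cdk1 (0.069), Cdkn2c (0.072) and Fry (0.074). Timeless, a replication fork factor, read 1091 and 1132 on the arrays labelled KO, against 1740 and 1820 on the LM arrays. Spc24 belongs to the kinetochore, Cdk1 is the mitotic kinase and Cdkn2c an inhibitor of cyclin-dependent kinases. None of the 5 was called, with limma adjusted p-values of 0.137 to 0.394. With 2 close arrays in each group, such nearness mostly reflects a similar KO minus LM difference, here -0.67 for Timeless to -0.74 for Fry. Shared regulation was not tested.

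Markers of other cells were read beside Lgals1 and Lgals3, which macrophages and activated T cells are known to express. Of 12 macrophage markers 5 were tested and 0 called, with 1 positive and 4 negative differences and a median of -0.25. That median ran from -0.51 to -0.06 with 1 array left out. The summed signal of all 12 was 837 and 811.5 on the arrays labelled KO, against 927.5 and 895.5 on the LM arrays. The macrophage markers C1qa, C1qc and Cd14 read 2.8 to 15.7 on the 4 arrays, and Adgre1 was below background on each. Cd68 was above background on all 4 arrays, with 192.5 and 174 on the arrays labelled KO, against 182 and 252.5 on the LM arrays (-0.25 ± 0.32, SE, limma adjusted p = 0.905). So was Marco, a scavenger receptor, at 119.9 to 170.1. Vcam1, an adhesion molecule, was below background on the arrays labelled KO, at 57.2 and 47.9, against 124.8 and 105.3 on the LM arrays. It was at least 1.28-fold lower (limma adjusted p = 0.623), the same direction as Lgals1. Csf1r, the macrophage growth factor receptor, read 110.8 and 35.5 on the arrays labelled KO, against 104.2 and 109.2 on the LM arrays, with overlap (adjusted p = 0.831). Of the 8 named dendritic cell markers 6 did not pass the filter. The sum of all 8 was 796 and 755 on the arrays labelled KO, against 742 and 717 on the LM arrays, and most of it was Zbtb46, which alone read 657.5 and 430 on the arrays labelled KO, against 489 and 506 on the LM arrays.

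Effector or memory T cell markers had 13 tested members, 10 with a positive difference and 0 called, with a median of 0.32 that was 0.02 without LM replicate 1. Their summed signal was 27382 and 24333 on the arrays labelled KO, against 25825 and 27169 on the LM arrays. S100a4, a calcium-binding protein of such cells, read 244.5 and 177 on the arrays labelled KO and was below background on the LM arrays, at 53.3 and 39.8. It was at least 1.92-fold higher (limma adjusted p = 0.162). Anxa2, a membrane-binding annexin, differed by 0.76 ± 0.25 (SE, limma adjusted p = 0.369), and Cd44, given above, also had a positive difference. The next by p lay lower without overlap. The intermediate filament gene Vim read 13247 and 11664 on the arrays labelled KO, against 14202 and 14142 on the LM arrays (-0.21 ± 0.07, limma adjusted p = 0.427). Crip1, a LIM domain protein, read 1592 and 1043 on the arrays labelled KO, against 1918 and 1795 on the LM arrays (-0.52 ± 0.19, adjusted p = 0.455).

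Regulatory T cell markers, of a type known to express Lgals1 strongly in mice, had 11 tested members, 10 with a positive difference. Of the 11, 1 rose, against 0.133% of all genes tested. That was the folate receptor relative Izumo1r (0.58 ± 0.09, SE, limma adjusted p = 0.0213). The summed signal of the list was 19829 and 17701 on the arrays labelled KO, against 14070 and 14519 on the LM arrays. Il2ra, which encodes the CD25 used to remove cells in the sort, read 963 and 948.5 on the arrays labelled KO, against 611 and 540.0 on the LM arrays (0.72 ± 0.19, limma adjusted p = 0.221). Ikzf2, which encodes Helios, differed by 0.49 ± 0.13 (adjusted p = 0.245), and Nrp1, which encodes neuropilin-1, by 1.01 ± 0.31 (adjusted p = 0.330). Foxp3, the factor that defines this lineage, read 794 and 363 on the arrays labelled KO, against 499 and 288.5 on the LM arrays, with overlap. The median of 0.48 was 0.09 without KO replicate 1 and 0.30 without LM replicate 2. Markers of the remaining cell types held no called gene. Tested were 7 of 8 named double-positive thymocyte markers (median difference 0.07), 4 of 6 for CD8 T cells (0.21) and 4 of 6 for NKT or gamma delta T cells (-0.24). With 1 array left out, the first ran from -0.07 to 0.20 (without KO replicates 2 and 1 in turn). The CD8 median was 0.01 without KO replicate 1 and 0.46 without KO replicate 2, and that of NKT or gamma delta T cells was -0.08 without KO replicate 2 and -0.41 without KO replicate 1. For cells outside the T lineage, 3 of 7 B cell (0.09), 2 of 5 erythroid (-0.15), 1 of 7 granulocyte (-0.26), 3 of 8 thymic epithelial (0.13), 1 of 7 mesenchymal (0.36) and 1 of 8 endothelial markers (0.07) were tested. Each of these medians rests on 1 to 3 genes, and all but the mesenchymal one changed sign when 1 array was left out. The part of these cell types in the Lgals1 and Lgals3 values was not tested.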

How the data were processed

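Per the labels' protocols, RNA from the sorted cells came from a Trizol extraction, and WT-Ovation Pico amplification and biotin labelling followed. The intensities that the authors deposited are linear, 1 for each probe set on each array, from 0.1 to 43129, scaled so that each array's mean after trimming 2% of values at each end was 500.0. Their program is not given in the sources used here. The 64 control probe sets among 45101 were not tested. The platform annotation gave 34945 probe sets 1 symbol, 932 several and 9160 none, and 34741 of the first kind matched the RefSeq table.

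Intensities were taken as log2(intensity + 16) and quantile normalized, with a gene represented by its brightest probe set. Probe sets of olfactory and vomeronasal receptors, 80 in all, set the background of each array at their 95th percentile, which was exceeded on at least 2 arrays by the genes tested. Below it on both arrays of a group, a fold is a lower bound against the lowest normalized level above background on each array. Such a bound holds for the estimate and does not cover its error. KO minus LM was fitted with limma 3.58.1 (lmFit, eBayes with trend) in R 4.3.3, with 2 residual degrees of freedom and 9.96 borrowed ones, two-sided p-values and Benjamini-Hochberg adjustment at 0.05. The fit was tested on simulated data drawn from its own fitted spread with independent errors. That test cannot show how the fit behaves on arrays that are not independent. Tables used Python 3.11.15 with pandas 2.3.3 and plots matplotlib 3.10.9. Precision is limited by the number of arrays and by how far a signal exceeds background. Over genes, the median standard error was 0.22.

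The members and the 8 pathway and 14 marker lists were chosen with earlier results of these data known. Named were the members, Cul3, called list genes and up to 3 further list genes with the smallest p, defining markers and the 5 genes nearest to Lgals1. Of markers of cell types other than macrophages and regulatory or effector T cells, mainly counts and medians are given. Cd7, Ptprc, Havcr2, Vim, Crip1, Marco, Zbtb46, Dntt, Cd8a, Hba-a2 and the Mgat5 and Lgals9 windows were added after their values were seen. Motifs were sought in RefSeq promoter windows of GRCm38.p6. Alternatives were other filters, normalizations, pseudocounts, moderation and probe set rules, a replicate block, a threshold of 0.1 and each array left out in turn.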

Additional observations from a re-analysis of the deposited data

How the results depend on the processing

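Lgals1 kept its direction under every alternative and its call under all but these: without the filter on dim genes and without the intensity trend (difference -0.71 in both), and for its dimmer probe set tested separately (-0.65). The filters, the moderation settings and the replicate block leave the difference of a gene unchanged, so they could not have altered its direction. None of the other 7 genes passed under any alternative. The number of called genes, 31 as reported, was 0 without the filter, 0 without the trend, 81 with median centring and 49 at a threshold of 0.1. Leaving out 1 array gave 40 to 97, where the remaining array of that group is taken to vary as much as the opposite pair. Lgals9 ran from -0.082 to 0.23 with 1 array left out, negative without KO replicate 1 (-0.01) and without LM replicate 1 (-0.082). Cul3 was positive with the mean of all probe sets (0.041), and ran from -0.053 to 0.032 with 1 array left out. Same-numbered replicates share only a number (correlation of their deviations -0.02), and the replicate block gave 43 called genes, with Lgals1 at -0.71 and an adjusted p of 0.0105 in limma. Median centring moved the median of all genes to -0.05, under 0.1. List medians moved by less than the spread between replicates in 256 of the comparisons with an alternative and by more in 50. The 256 include the fits without the trend, with robust moderation and with the replicate block, in which a list median could not move. Lgals3 gave no value where all 4 arrays had to lie above background, and signal over background limits such dim genes.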
